A study of Mus musculus with 4 samples.

Results

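The ATF4 stress response and serine one-carbon genes examined here were *Atf4*, *Ddit3*, *Trib3*, *Sesn2*, *Asns*, *Slc7a11*, *Phgdh*, *Psat1*, *Shmt2* and *Mthfd2*. These 10 genes were taken by name from the 47729 genes listed in the count table, all 10 were found, and 9 of them had enough reads to be among the 12536 genes tested. RNA was measured by bulk RNA-seq in regulatory T (Treg) cells of female C57BL/6 mice aged 6 to 8 weeks. The labels name the spleen as the tissue, while the study's text names lymph nodes as well. There were 2 libraries of WT Treg cells (Tfrc +/+ Foxp3 YFP-Cre/+) and 2 labelled TfR1-deficient (Tfrc fl/fl Foxp3 YFP-Cre/+), where TfR1, the product of *Tfrc*, is the transferrin receptor that brings iron into cells. Both genotypes carry YFP-Cre in the *Foxp3* gene, which is on the X chromosome, so that in these heterozygous females only the cells using that X carry Cre and YFP, and the sorted YFP+ cells are those in which Cre is made. The libraries of a genotype are described as biological replicates. How many mice went into each library is not given in the sources used here. The comparison asks how loss of the transferrin receptor alters the RNA content of Treg cells.

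The integrated stress response joins several kinases to a common switch. Each kinase senses a different strain, among them lack of amino acids (GCN2), unfolded protein in the endoplasmic reticulum (PERK), double-stranded RNA (PKR) and lack of heme (HRI), and each phosphorylates the translation factor eIF2. General translation then slows while translation of the *Atf4* mRNA rises through its upstream reading frames, so the amount of *Atf4* RNA is only part of the control of ATF4 protein. ATF4 is a transcription factor that turns on genes of amino acid uptake and synthesis, including the serine pathway and the mitochondrial folate enzymes that pass on one-carbon units for nucleotide synthesis, a pathway used by dividing T cells.

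Promoters of 3 of the 10 genes, *Asns*, *Slc7a11* and *Trib3*, hold the letters TGATGNAA, the core of the C/EBP-ATF response element. Both strands were read, from 250 bases before to 50 bases after a RefSeq start (GRCm38.p6). Counted by window, 3 of the members' 11 windows (27.3%) held a match, against 3.97% of all 32851 promoter windows of that length. The matching stretches are shown because ATF4 is known to act through the C/EBP-ATF response element. They lie on 2 of the members with the lowest levels below and on *Trib3*. Capitals mark the match, and each sequence reads 5′ to 3′ along the gene's own strand, which is the minus strand for all 3.
*Asns*, chr6:7693210-7693252: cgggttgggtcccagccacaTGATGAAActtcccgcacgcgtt
*Slc7a11*, chr3:50443633-50443699: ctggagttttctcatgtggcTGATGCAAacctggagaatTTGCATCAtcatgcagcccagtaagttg
*Trib3*, chr2:152344028-152344057: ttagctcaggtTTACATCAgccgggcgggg
The *Asns* match begins 23 bases upstream of the start. *Slc7a11* holds a pair of matches, beginning 66 and 47 bases upstream, the latter read on the opposite strand. The *Trib3* match is also on the opposite strand and begins at base 15 of the transcript. A match is a description of letters, not evidence of binding.

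The targeted gene was not lower in the libraries labelled TfR1-deficient. *Tfrc* was at 50.8 and 54.1 CPM (counts scaled by TMM to a common library size) in WT replicates 1 and 2 and at 56.1 and 48.3 CPM in TfR1-deficient replicates 1 and 2, a log2 fold change of -0.01 ± 0.16 (SE), so gene-level *Tfrc* RNA does not check the labels, and every direction below is that of the libraries as labelled. *Foxp3*, the defining Treg gene, was at 194 and 130 CPM in WT and at 122 and 114 CPM in the TfR1-deficient libraries. Its log2 fold change was -0.46 ± 0.22 (adjusted p = 0.911 by edgeR). The groups did not overlap, which held for 34.9% of all genes tested. Total counts ranged from 10841939 to 17278448 per library. WT replicate 1 and TfR1-deficient replicate 2 stood apart from the other two libraries, with the summed level of 19 macrophage genes at 1250 and 3710 CPM against 102 and 73.1 CPM in WT replicate 2 and TfR1-deficient replicate 1. All 20 proliferation genes were also higher in both of them than in both others. Their part in the members' levels was not tested, and in bulk RNA fewer cells of a type and less RNA per cell cannot be told apart.

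Levels of the members spanned a wide range that was shared by both genotypes. Compared per kilobase of exon, *Phgdh* was the most abundant, at 74.0 to 109 CPM per kb over the 4 libraries, followed by *Shmt2* at 57.3 to 67.6. The ranges of *Mthfd2*, at 37.7 to 48.4, and *Atf4*, at 35.1 to 51.7, overlapped, and *Mthfd2* was the higher in 3 of 4 libraries. Those of *Psat1*, at 14.1 to 27.4, and *Ddit3*, at 10.4 to 17.5, overlapped too, although *Psat1* was above *Ddit3* in each of the 4 libraries. *Sesn2*, at 5.04 to 9.20, and *Trib3*, at 4.97 to 6.77, formed a further overlapping pair, with *Sesn2* the higher in 3 of 4. *Asns* lay below them at 1.22 to 2.36 CPM per kb. *Slc7a11* was near the detection limit at 0.0051 to 0.0454 CPM per kb. Within each library the 4 enzymes of serine synthesis and mitochondrial folate metabolism (*Phgdh*, *Psat1*, *Shmt2* and *Mthfd2*) stood above *Ddit3*, *Sesn2*, *Trib3* and *Asns*.

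**Figure D1:**
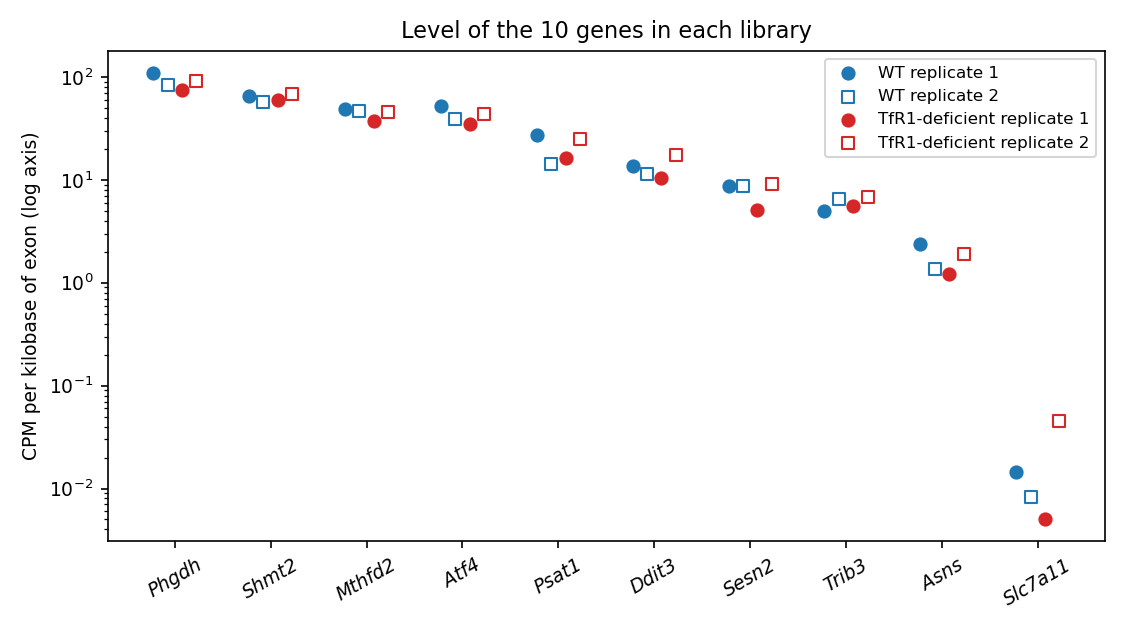
Levels of the 10 genes in each of the 4 libraries, in CPM per kilobase of exon on a log axis, ordered by mean level, with 1 point per library and colours for the genotypes. *Phgdh* is at the top with 74.0 to 109 CPM per kb and *Slc7a11* at the bottom with 0.0051 to 0.0454, and the points of both genotypes are mixed for most genes.

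No member passed a test between the groups labelled WT and TfR1-deficient. In edgeR's quasi-likelihood test, 0 of the 9 tested members had a Benjamini-Hochberg adjusted p under 0.05, as did 0% of all genes tested. At an unadjusted p under 0.05 and a log2 change of 0.5 or more either way, 0 of 9 passed, against 4.08% of all genes. At an adjusted p under 0.05 and the same minimum change, DESeq2 called 0 of the 9, against 0.351% of all 12536 genes. Only 10105 of these genes, all 9 members among them, received an adjusted p from DESeq2. The fitted log2 fold change was positive for 3 members and negative for 6, with a median of -0.19 against 0.01 over all genes tested. *Mthfd2* was the only member whose groups did not overlap, 1 of 9, while 34.9% of all genes tested had groups without overlap. Taken separately, the 95% intervals of all 9 members left a doubling in the TfR1-deficient libraries outside. The margin was small for *Ddit3*, *Psat1* and *Asns*, whose upper limits were 0.96, 0.95 and 0.91 in log2. A fall to 0.5-fold lay inside the interval only for *Asns* and *Sesn2*. Genotype was the only term of the fit, so the intervals do not allow for the macrophage and proliferation differences between libraries.

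**Figure D2:**
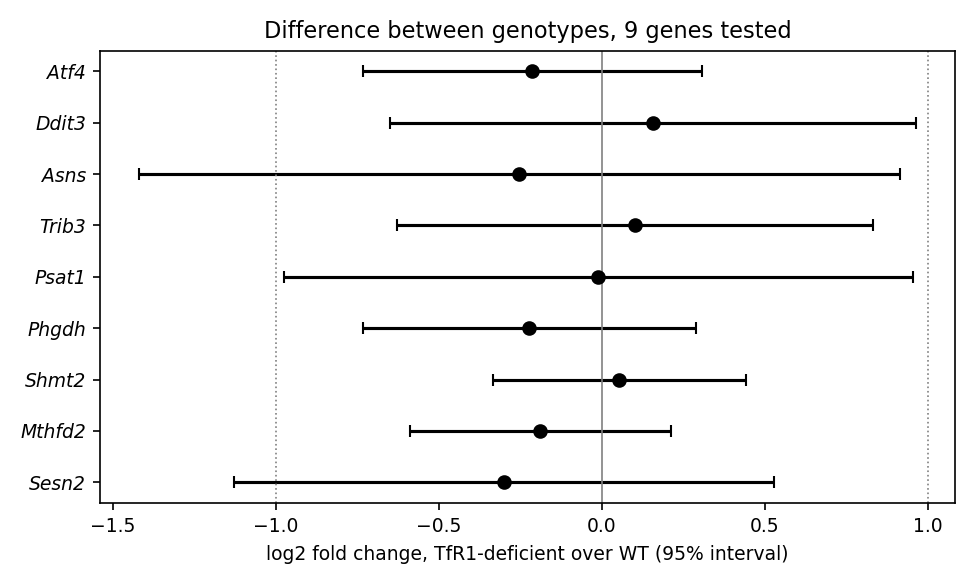
Log2 fold change (TfR1-deficient over WT) of the 9 tested members, with points for the edgeR estimate, bars for its 95% interval and dotted lines at a 2-fold change either way. Every interval crosses 0, the narrowest is that of *Shmt2* (-0.33 to 0.44), and only those of *Asns* and *Sesn2* reach the lower dotted line.

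*Atf4* encodes the transcription factor itself (chromosome 15, 80255184 to 80257545, GRCm38.p6). It was at 89.1 and 67.3 CPM in WT replicates 1 and 2 and at 60.5 and 74.5 CPM in TfR1-deficient replicates 1 and 2. The highest library was a WT one and the lowest a TfR1-deficient one, and the groups overlapped. The means were 78.2 ± 15.4 and 67.5 ± 9.96 CPM (SD, n = 2 each), which gave a log2 fold change of -0.21 ± 0.20 (SE) with an adjusted p of 0.954 by edgeR. The 95% interval of the fold ran from 0.602 to 1.24, so a rise of *Atf4* RNA above 1.24-fold fell outside it.

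*Ddit3* encodes CHOP, a transcription factor of prolonged stress that is known for promoting cell death (chromosome 10, 127290793 to 127296291). *Ddit3* was at 23.3 and 19.4 CPM in WT and at 17.7 and 29.9 CPM in the TfR1-deficient libraries. The latter pair held both the lowest and the highest value and so enclosed the WT pair. Its log2 fold change was 0.16 ± 0.32 (adjusted p = 0.977 by edgeR). The exons of *Ddit3* overlap those of *Mars*, on the opposite strand, which was at 116 to 141 CPM; whether the counting used strand is not given in the sources used here, and without strand the reads of such partners cannot be told apart.

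*Trib3*, a pseudokinase that binds AKT and restrains ATF4 and CHOP, lies on chromosome 2 from 152337425 to 152344060. *Trib3* was at 10.6 and 14.0 CPM in WT and at 11.9 and 14.4 CPM in the TfR1-deficient libraries, so the groups overlapped. The log2 fold change was 0.10 ± 0.29 (adjusted p = 0.989 by edgeR). Its promoter match, printed above, went with no difference that could be detected between these groups.

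*Sesn2* encodes sestrin 2, a leucine sensor that restrains mTORC1 (chromosome 4, 132492804 to 132510456). *Sesn2* was at 30.5 CPM in both WT libraries, at 17.5 CPM in TfR1-deficient replicate 1 and at 31.98 CPM in TfR1-deficient replicate 2. A single library was low, while the other three lay close together. The group means were 30.5 ± 0.00960 and 24.7 ± 10.2 CPM (SD, n = 2 each), and the log2 fold change of -0.30 ± 0.33 had an adjusted p of 0.955 by edgeR. The value rested on which TfR1-deficient library was used: the log2 fold change was -0.80 without TfR1-deficient replicate 2 and 0.07 without TfR1-deficient replicate 1.

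*Asns*, asparagine synthetase, is a classical target of ATF4 when amino acids run short (chromosome 6, 7675165 to 7693209). *Asns* was at 6.47 and 3.75 CPM in WT and at 3.34 and 5.26 CPM in the TfR1-deficient libraries. Replicate 1 was the higher of the WT pair and replicate 2 the higher of the TfR1-deficient pair, and the groups overlapped. The log2 fold change was -0.25 ± 0.46, with the widest interval among the 9 members (-1.42 to 0.91, adjusted p = 0.975 by edgeR), and these values rest on 40 to 79 reads per library.

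*Slc7a11* encodes the transport subunit of the cystine/glutamate exchanger, which supplies cysteine for glutathione and is known for its place in resistance to ferroptosis (chromosome 3, 50364936 to 50499087). *Slc7a11* had 2 and 1 reads in the WT libraries and 1 and 7 reads in the TfR1-deficient libraries. It was not tested at these counts. No difference was detectable with so few reads. The genome (NCBIM37) holds 8 other stretches at 95% identity or more to *Slc7a11* exons. The genes annotated there, *Tuba1a*, *Tuba1b* and *Tuba1c* among them, had 3521 to 6833 reads in total per library. The part of these stretches in the *Slc7a11* count was not tested.

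*Phgdh* and *Psat1* encode consecutive enzymes of serine synthesis from a glycolytic intermediate, with phosphoglycerate dehydrogenase as the entry step. *Phgdh* (chromosome 3, 98313171 to 98339969) was at 271 and 206 CPM in WT and at 184 and 225 CPM in the TfR1-deficient libraries. The groups overlapped, and the order of the 4 libraries was that of *Atf4*. The means of 239 ± 46.3 and 205 ± 29.0 CPM (SD, n = 2 each) gave a log2 fold change of -0.22 ± 0.20 (adjusted p = 0.951 by edgeR). The genome (NCBIM37) holds 12 other stretches at 95% identity or more to *Phgdh* exons, and the genes annotated there had at most 5 reads in a library.

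*Psat1*, phosphoserine aminotransferase (chromosome 19, 15905123 to 15925059), varied more within a genotype than between them. *Psat1* was at 117 and 60.0 CPM in WT replicates 1 and 2 and at 68.6 and 107 CPM in TfR1-deficient replicates 1 and 2. Each group held a high and a low library, the ratio of the highest to the lowest was 1.94, and the log2 fold change was -0.01 ± 0.38 (adjusted p = 0.999 by edgeR). *Psph*, which completes the pathway, was at 53.7 and 46.0 CPM in WT and at 45.4 and 49.0 CPM in the TfR1-deficient libraries, a log2 fold change of -0.08.

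*Shmt2* and *Mthfd2* encode mitochondrial enzymes that take a one-carbon unit from serine and carry it on the folate carrier. *Shmt2* (chromosome 10, 127517123 to 127522444) was the steadiest member, at 150 and 131 CPM in WT and at 137 and 154 CPM in the TfR1-deficient libraries. The groups overlapped, with a log2 fold change of 0.05 ± 0.15 (adjusted p = 0.989 by edgeR) and a ratio of the highest to the lowest library of 1.18. Its exons overlap those of *Ndufa4l2* on the opposite strand. The cytosolic counterpart *Shmt1* was lower than *Shmt2* per kilobase, at a mean of 10.99 against 62.7 CPM per kb, and its log2 fold change was 0.14 ± 0.28.

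*Mthfd2* (chromosome 6, 83305704 to 83326011) was at 132 and 128 CPM in WT and at 103 and 125 CPM in the TfR1-deficient libraries. Both TfR1-deficient libraries lay below both WT libraries, 1 of them by a small margin. The means were 130 ± 3.04 and 114 ± 15.9 CPM (SD, n = 2 each), which gave a log2 fold change of -0.19 ± 0.16 with an interval from -0.59 to 0.21 (adjusted p = 0.950 by edgeR). The cytosolic enzyme *Mthfd1* had a log2 fold change of -0.11, and the related *Mthfd2l* had only 2 to 17 reads per library and was not tested.

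Most of the tested members varied across the libraries along a line other than genotype. The pairing of libraries used to describe it was chosen after the data were seen. In 6 of the 9 (*Atf4*, *Ddit3*, *Asns*, *Psat1*, *Phgdh* and *Shmt2*) both WT replicate 1 and TfR1-deficient replicate 2 were above both other libraries, against 22.9% of all genes tested. In 0 of 9 they were both below, against 25.5%. *Trib3*, *Mthfd2* and *Sesn2* showed neither. The both-above pattern was not confined to the members. Among the pathway lists described below, it held for 9 of 17 endoplasmic reticulum stress genes and 10 of 22 one-carbon and serine genes. The counts were 4 of 10 for mitochondrial stress and 10 of 31 for other ATF4 targets. They were 4 of 20 for eIF2 regulators and 1 of 8 for the sestrin list. The mean log2 CPM of the 9, centred on the 4 libraries, was 0.20 and -0.10 in the WT libraries and -0.28 and 0.18 in the TfR1-deficient libraries. That of the 20 proliferation genes was 0.74 and -0.77 and then -0.68 and 0.72, so the same pair of libraries was high in both. *Mki67*, a marker of cycling cells, was at 90.5 and 28.7 CPM in WT and at 34.7 and 82.0 CPM in the TfR1-deficient libraries, and *Csf1r*, a macrophage receptor, at 124 and 1.97 and then 4.96 and 371 CPM. The macrophage genes thus moved with these members too, and the part of either in the members' levels was not tested.

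Comparing the libraries that were low in both lists with each other, and those that were high in both, did not give 1 direction for all members. These comparisons were chosen after the data were seen, and with 1 library on each side no test is possible. Between TfR1-deficient replicate 1 and WT replicate 2, which were low in both lists, the log2 ratio was -0.15 for *Atf4*, -0.79 for *Sesn2* and 0.19 for *Psat1*. Between TfR1-deficient replicate 2 and WT replicate 1, which were high in both but with a summed macrophage level of 3710 against 1250 CPM, it was -0.26 for *Atf4*, 0.07 for *Sesn2* and -0.13 for *Psat1*. *Ddit3*, *Trib3*, *Psat1* and *Sesn2* had opposite signs in these comparisons, *Atf4*, *Asns*, *Phgdh* and *Mthfd2* were negative in both, and *Shmt2* was positive in both.

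**Figure D3:**
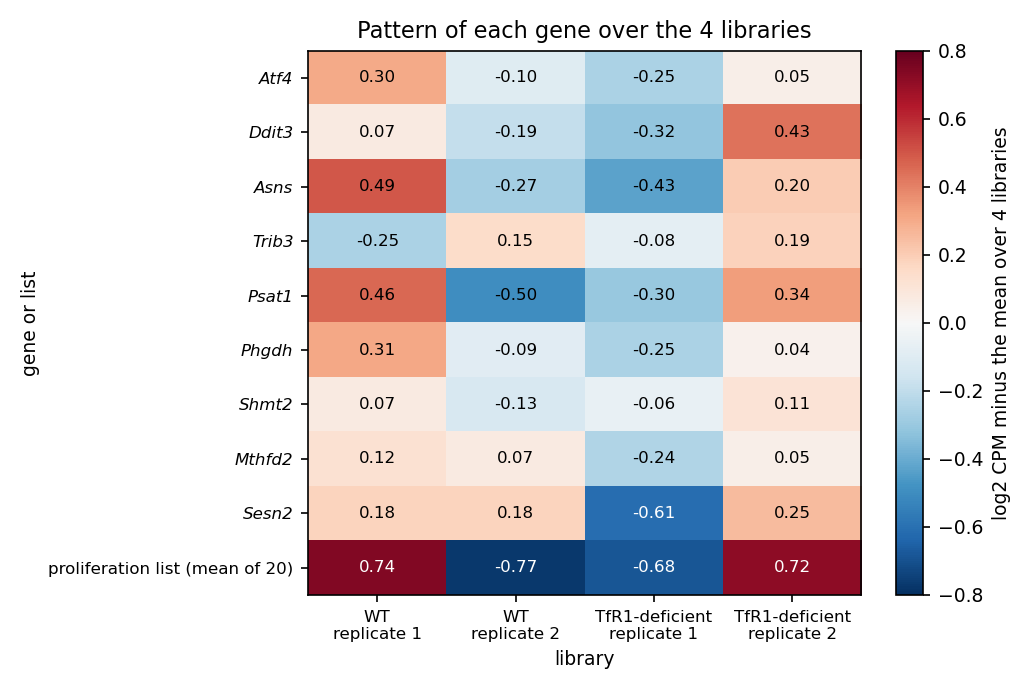
Centred log2 CPM (each library minus the mean of 4) of the 9 tested members and the mean of 20 proliferation genes, 1 column per library, red for higher and blue for lower. WT replicate 1 and TfR1-deficient replicate 2 are the high columns for 6 of the 9 members and for the proliferation mean (0.74 and 0.72).

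Among the members, *Atf4* and *Phgdh* had nearly the same profile over the 4 libraries. The Euclidean distance between their centred log2 CPM values was 0.0133, and 0 of the other 12535 genes lay nearer to either of them, a pair singled out after the values were seen. By the same measure the genes nearest to *Psat1* were *Ap1s2* at 0.0485, *Eif4g1* at 0.055 and *Rtn3* at 0.0642, and those nearest to *Asns* were *Ppp1r10* at 0.0443, *Dck* at 0.0545 and *Got2* at 0.0574. These distances rest on 4 libraries only, over which many genes share a profile.

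The kinases upstream of *Atf4* were all expressed and none passed the test. *Eif2ak1*, which encodes the heme-sensing kinase HRI, was at 83.9 and 64.1 CPM in WT and at 74.1 and 62.3 CPM in the TfR1-deficient libraries, overlapping groups with a log2 fold change of -0.12 ± 0.19. *Eif2ak2* (PKR) had a log2 fold change of -0.08, *Eif2ak3* (PERK) of 0.24 ± 0.34 and *Eif2ak4* (GCN2) of 0.32 ± 0.29. *Dele1*, which relays mitochondrial stress to HRI and is listed under an older name, had a log2 fold change of -0.15. *Ppp1r15a*, the stress-induced subunit that directs dephosphorylation of eIF2, was at 1729 and 2135 CPM in WT and at 1375 and 1518 CPM in the TfR1-deficient libraries, a log2 fold change of -0.42 with an unadjusted p of 0.0508 by edgeR. RNA levels do not report the activity of these kinases.

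Around the members, 123 genes in 6 pathway lists were examined, of which 108 were tested. After Benjamini-Hochberg adjustment 0 of the 108 passed in edgeR's test and 0 in DESeq2, and at an unadjusted p under 0.05 with a log2 change of 0.5 or more there was 1 higher and 3 lower, against 4.08% of all genes. The fold changes were evenly split, 54 positive and 54 negative, with a median of -0.00 against 0.01 over all genes. Of the other ATF4 targets 0 were higher and 1 lower of 31, and of the one-carbon and serine genes 0 were higher and 1 lower of 22. Among the eIF2 regulators 0 of 20 passed in either direction, as did 0 of 8 in the sestrin list. Of the 20 eIF2 regulators, 11 fold changes were positive and 9 negative, and the largest were decreases. *Gcn1l1* had a log2 fold change of -0.63 ± 0.25, with an unadjusted p of 0.0521 by edgeR and 0.0314 by DESeq2. That of *Ppp1r15b* was -0.59 ± 0.25, with an unadjusted p of 0.0609 by edgeR and 0.0483 by DESeq2. Both had an adjusted p of 0.911 by edgeR and groups without overlap, which held for 34.9% of all genes tested. The endoplasmic reticulum stress list had 1 lower of 17 and the mitochondrial stress list 1 higher of 10.

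Among the genes that passed unadjusted were *Pck2*, *Hyou1* and *Lonp1*, each with an adjusted p of 0.911 by edgeR. Their groups did not overlap, which held for 34.9% of all genes tested. They were picked by the unadjusted p, so the lack of overlap is no separate support. *Pck2*, the mitochondrial form of PEPCK and an ATF4 target, was at 41.3 and 35.4 CPM in WT and at 23.7 and 26.1 CPM in the TfR1-deficient libraries, a log2 fold change of -0.62 ± 0.19. *Hyou1*, a chaperone of the endoplasmic reticulum, was at 40.2 and 40.1 CPM against 26.9 and 26.4 CPM, a log2 fold change of -0.59 ± 0.17. *Lonp1*, the mitochondrial matrix protease, was the 1 gene that was higher, at 9.74 and 11.9 CPM against 22.1 and 19.3 CPM, a log2 fold change of 0.93 ± 0.25. Genes whose groups do not overlap cannot have WT replicate 1 and TfR1-deficient replicate 2 both above the other libraries. The part of that pattern in these genes was therefore not tested.

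**Figure D4:**
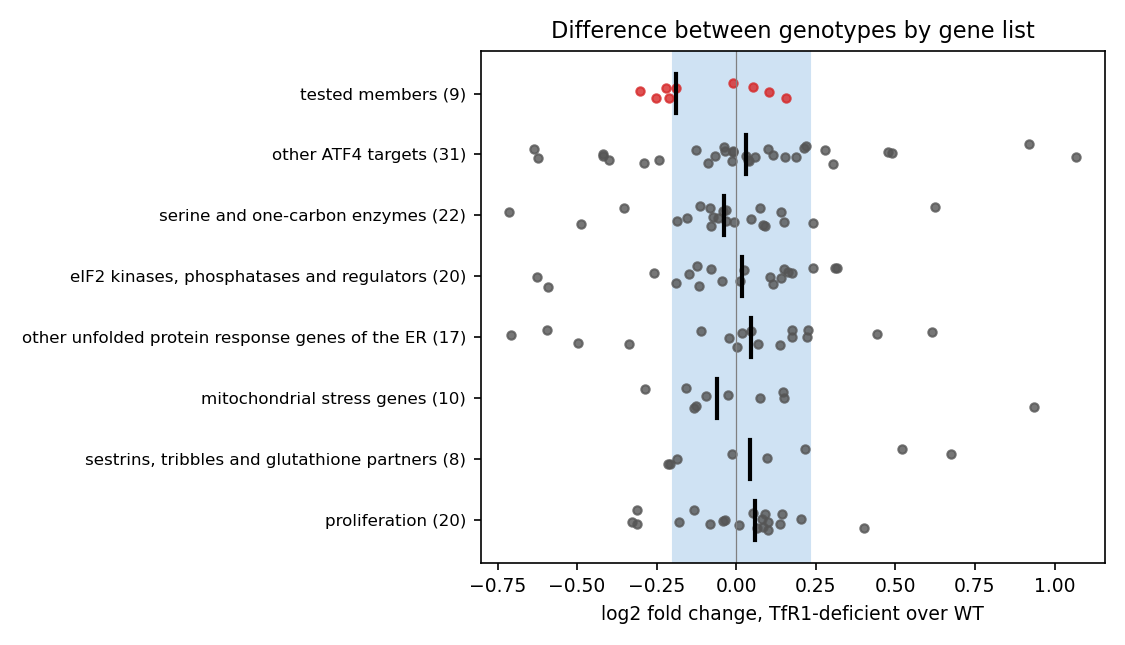
Log2 fold changes (TfR1-deficient over WT) of the tested genes in each list, 1 point per gene, with a black bar at the list's median and a blue band for the quartiles of all 12536 genes tested (-0.20 to 0.23). Every list's median lies inside the band, and that of the members is -0.19.

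Some relatives of the members differed from them in RNA level in these libraries. Per kilobase, *Sesn1* and *Sesn3* were at means of 107 and 35.6 CPM per kb against 7.94 for *Sesn2*, and their log2 fold changes between genotypes were -0.01 and -0.21. *Trib2* was at a mean of 245 CPM per kb against 5.98 for *Trib3*, with a log2 fold change of 0.21, and that of *Trib1* was -0.19. *Atf5*, a relative of *Atf4* tied to mitochondrial stress, was at 1.64 and 0.469 CPM in WT and at 1.79 and 2.701 CPM in the TfR1-deficient libraries, a log2 fold change of 1.07 ± 0.73 with an unadjusted p of 0.202 by edgeR. The groups of *Atf5* did not overlap, which held for 34.9% of all genes tested, and its error was large beside the difference. Among targets of ATF4 with few reads, *Chac1* had 5 and 0 reads in WT and 0 in both TfR1-deficient libraries, and *Gdf15*, a secreted stress factor, had 5 and 0 and then 0 and 66 reads, with the high count in the TfR1-deficient library where macrophage genes were highest; that gene's source was not tested.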

How the data were processed

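Sorted Treg cells (CD25+YFP+ or YFP+CD4+, as the study's text gives both) were used for libraries made with a low-input kit. The authors deposited whole-number read counts per Ensembl gene, not normalized. Per the labels, reads were trimmed with Trim Galore 0.6.7, mapped with STAR 2.7.9a and counted with featureCounts on mm10, whereas the study's methods name mm9. The strand setting is not given in the sources used here.

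The 12536 genes kept by filterByExpr were normalised with TMM factors and compared in edgeR 4.0.16 (R 4.3.3) by its quasi-likelihood test, genotype being the only term, with Benjamini-Hochberg adjustment over all genes, threshold 0.05 and a minimum absolute log2 fold change of 0.5 for counts at an unadjusted p. SEs are the fold change over the square root of F. Log2 CPM used a prior count of 2. Alternatives were DESeq2 1.42.0, other scaling, filters and prior counts, a replicate block and omission of each library. Exon lengths and near-identical copies (95% identity over 100 bases) came from GENCODE vM1 on NCBIM37, positions and promoters from RefSeq on GRCm38.p6, where all 10 members matched.

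The members, lists and named genes (all members, all list genes passing unadjusted, and the genes nearest to a member that varied most) were chosen with earlier results of these data known. Of the list genes that passed unadjusted, 1 is not reported here. Other named genes were chosen for their role or after their values were seen. Macrophage (19 of 19 genes matched), erythroid, B cell, CD8, NK and platelet markers were also examined. Treg markers summed to 3090 to 4360 CPM, B cell markers to 1110 to 1580, erythroid to 17.5 to 287, NK to 41.3 to 53.6, CD8 to 11.1 to 12.6 and platelet to 1.88 to 3.37. Depth ranged from 10841939 to 17278448 counts. Replicates differed beyond counting noise (chi-square per degree of freedom 29.3 in WT and 45.7 in TfR1-deficient), so each was kept as a sample.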

Additional observations from a re-analysis of the deposited data

How the results depend on the processing

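With 2 libraries per group and a common biological coefficient of variation of 0.323, the spread between libraries limits these comparisons more than depth does. The 9 tested members were called in 0 of the alternatives at an adjusted p, and of 99 member fold changes recomputed under other settings 81 kept their sign, 18 turned and the lowest adjusted p was 0.848. At an unadjusted p the number of members called ranged from 0 to 1 when a library was left out, the 1 being *Sesn2* without TfR1-deficient replicate 2, in a fit where the lone library is assumed to vary like the WT pair. *Psat1*, near 0, turned positive with DESeq2 (0.007), its size factors (0.006), total library size (0.027), no filter (0.005), at least 10 counts (0.015) and the replicate block (0.032).

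Leaving out 1 library in turn moved the log2 fold change of *Atf4* from -0.40 to 0.016, *Ddit3* from -0.27 to 0.49, *Asns* from -0.615 to 0.21, *Trib3* from -0.075 to 0.32, *Psat1* from -0.41 to 0.56, *Phgdh* from -0.41 to 0.003, *Shmt2* from -0.041 to 0.17, *Mthfd2* from -0.341 to -0.052 and *Sesn2* from -0.80 to 0.07, and the members' median from -0.37 to 0.07. The median of the eIF2 list ranged from -0.02 to 0.057, and was -0.035 for TfR1-deficient replicate 1 against WT replicate 2 and 0.055 with total library size. That of the mitochondrial stress list ranged from -0.11 to 0.098 and that of the proliferation list from -0.79 to 0.99.

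Over all genes, an adjusted p called 44 with DESeq2 and 262 with no count filter, in place of 0; an unadjusted p called 1095 with no filter and 211 with the replicate block, in place of 511. Of the list genes 1 (*Gdf15*) was called at an adjusted p with no filter, and at an unadjusted p 8 with DESeq2, 9 with no filter, 1 with the block, 7 with no minimum change and 1 to 6 with a library left out, in place of 4. Libraries with the same replicate number did not move together (correlation of deviations across genes -0.61). That value does not settle whether they were prepared as pairs. A crossed pairing, chosen after the data were seen, called 360 genes and 3 list genes at an adjusted p and 1115 and 11 at an unadjusted p. The cause of these shifts was not tested.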
